A study of Homo sapiens with 2 samples.

Results

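FGF2, the FGF receptors and the proteins that bind FGF at the cell surface were followed here as a set of 10 genes in a drug-resistant lung cancer cell line and its parent. The set was picked by gene symbol, with earlier results from these counts known: the ligands FGF2 and FGF19, the receptors FGFR1, FGFR2, FGFR3, FGFR4 and FGFRL1, the carrier FGFBP1, and the co-receptors SDC1 and SDC4. All 10 were among the 18944 genes of the table. H1993 is an established lung cancer line with an amplified MET gene. The parental library is labelled DMSO. The resistant library came from H1993 cells selected in PHA665752, an inhibitor of the MET kinase, at concentrations that were raised from 1 nM to 1 µM. These cells were kept in 1 µM drug and then grown in its absence for 1 week ahead of experiments, and their library is labelled PHA665752. The labels thus differ in treatment as well as in line, so drug exposure and the selected state cannot be told apart. Both lines carry the H1993 background and grew in RPMI-1640 with serum. There was 1 library for each, so no value here has a replicate, and whether the resistant line is 1 clone is not given.

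Fibroblast growth factors are secreted ligands that bind receptor tyrosine kinases of the FGFR family together with heparan sulfate, a sulfated sugar chain carried by proteoglycans such as syndecans and glypicans. Binding pairs the receptors, which phosphorylate the adaptor FRS2 and signal through the RAS-ERK cascade. FGF signalling controls branching of the developing lung, and in carcinoma cells FGFR signalling is a known route around inhibition of another receptor kinase.

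Sequencing gave 16723181 counts for the parental library and 17086748 for the resistant one. Levels are given in CPM (counts-per-million), scaled to the trimmed mean of M-values. Log2 ratios divide the resistant by the parental level after 0.5 was added to every count, and the exact 95% interval covers counting error only. A gene was called where the ratio was 1 or more in size, a 2-fold difference, and the interval excluded 0, among genes that reached 1 CPM in either library. All 9 epithelial markers were above that limit in both libraries, although EPCAM was called lower at 389 and 164 CPM, while the lung alveolar genes were near absent apart from NKX2-1, at 4.16 and 5.95 CPM. None of the other 7 alveolar genes exceeded 4 counts. MET itself was 1.59-fold lower in the resistant library (interval 1.57 to 1.61).

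Of the 10 genes, 8 reached 1 CPM. FGF2 was called higher, FGFR3 and FGFBP1 were called lower, and 5 were called neither way. FGFR2 and FGF19 stayed below the limit. Over all 12245 genes tested, 12.1% were called higher, 8.29% lower and 20.4% in either direction. These values chose the set, so the counts are a description and nothing is read from them.

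**Figure D1:**
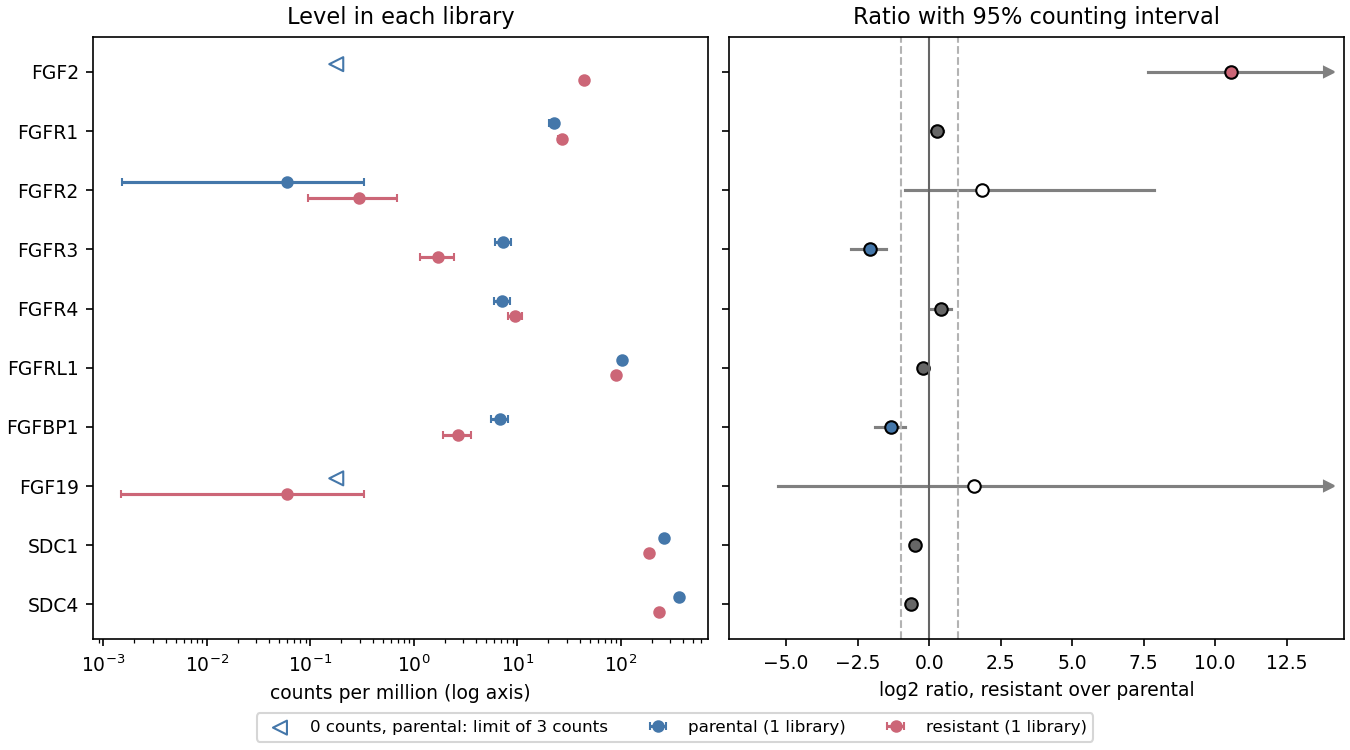
Left, the level of each gene in the parental (blue) and resistant (red) library in CPM on a log axis, with exact 95% Poisson intervals; open triangles mark 0 counts, drawn at the limit of 3 counts. Right, the log2 ratio with its 95% counting interval (arrows: no upper end), filled red for higher, blue for lower, grey for neither and white for below 1 CPM; dashed lines mark 2-fold. FGF2 stands far to the right, FGFR3 and FGFBP1 lie left of the dashed line, and the point of FGF2 depends on the 0.5 added to its 0 counts.

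FGF2, or basic FGF, is a ligand of FGFR1 and other FGF receptors that leaves the cell without a signal peptide. It had 0 counts in parental and 757 in resistant cells, which is 44.6 CPM (95% Poisson interval 41.5 to 47.9). A count of 0 allows up to 3 counts, or 0.178 CPM, so with the resistant count taken as it stands FGF2 was at least 250-fold higher. Bounds of this kind leave out the counting error of the resistant library. The exact 95% interval, which covers counting error in both libraries, had a lower end of 203-fold, a log2 ratio of 7.67. That end is lower mainly because the 95% Poisson interval of a 0 count reaches 0.219 CPM, above the 0.178 CPM used for the bound. Among the 139 tested genes with 0 parental counts, FGF2 ranked 5 by resistant counts. As in any bulk library, more cells with FGF2 RNA and more FGF2 RNA per cell cannot be told apart.

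The bases just upstream of FGF2 are shown because FGF2 is the gene of the set with the largest difference. They come from the RefSeq promoter table, build GRCh38.p14, plus strand, chr4:122826581-122826681, and end at the outermost RefSeq start of the gene. Capitals mark the GC box, GGGCGG on either strand, the motif of SP1-type factors.
FGF2: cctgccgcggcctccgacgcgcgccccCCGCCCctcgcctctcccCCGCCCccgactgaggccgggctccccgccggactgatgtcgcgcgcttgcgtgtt
The stretch holds 2 GC boxes in 101 bases. The 250 bases upstream of the table's start site hold 3, along with 33 CpG dinucleotides, more than in 91.9% of 35116 promoter windows of that length. A GC box was found in 42.6% of those windows. Neither the AP-1 motif TGACTCA nor the TEAD motif GGAATG was found in the FGF2 window on either strand, and 4.20% and 11.9% of all windows hold them.

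NUDT6, a Nudix hydrolase gene transcribed from the opposite strand, overlaps FGF2. In GENCODE 29, 804 of the 6775 exon bases of FGF2 (11.9%) are also exon of NUDT6. NUDT6 had 73 counts in parental and 148 in resistant cells, a log2 ratio of 1.00 (0.59 to 1.43). Thus the parental library held NUDT6 counts with 0 for FGF2. How the counting treated strand is not given, so reads in the overlap cannot be placed on either gene, and the part of this in the NUDT6 ratio was not tested. Of the 50-base words in FGF2 transcripts, 0 of 6726 occur in the sense direction in transcripts of any other GENCODE gene. In antisense, 709 of them occur in transcripts of NUDT6 or LUNAR1.

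FGF2 is also a product of fibroblasts, and 9 of 10 fibroblast markers had at most 6 counts in either library. Their sum was 20.9 CPM in parental and 15.4 CPM in resistant cells, nearly all of it COL1A1 at 348 and 242 counts. DCN and THY1 were at 0 in both. Among the 7 endothelial markers CDH5 went from 5 to 495 counts, while KDR and TEK were at 0 in both libraries and no other endothelial marker exceeded 3 counts. Of 8 leukocyte markers, CD68 had 1447 and 537 counts, PTPRC 21 and 7 and CD14 5 and 33, and CD3E was at 0 in both. CD14 was called higher and the first 2 lower. CD14 and PTPRC reached 1 CPM only in the library where each was high, so the filter fixed their direction. The part of these genes in the FGF2 difference was not tested.

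FGF19, an endocrine ligand that acts through FGFR4 with the co-receptor KLB, had 0 counts in parental and 1 in resistant cells. Both values lie within the 3 counts that a 0 allows, so no difference was detectable at this depth. KLB had 11 and 20 counts, at a log2 ratio of 0.82 (-0.28 to 2.06), and KL, the co-receptor of FGF23, had 4 and 6.

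The full family of 18 secreted FGF genes was otherwise close to silent in the parental library, with 18 counts in all against 951 in the resistant library. Only 3 of the 18 reached 1 CPM, and each was called higher. Since all 3 were under 1 CPM in the parental library, they entered only through the resistant library and the filter fixed their direction. FGF7, the keratinocyte growth factor, which binds the epithelial form of FGFR2, had 0 and 132 counts and was at least 43.6-fold higher against the limit of 3 counts, with a lower interval end of 35.0-fold. FGF5 had 9 and 21 counts, a log2 ratio of 1.17 (0.02 to 2.52), with an interval that barely excluded 0. Below the limit, FGF9 had 0 and 16 counts, named after its value was seen. The resistant library thus held FGF2 and FGF7 as its main FGF transcripts, and 6 of the 18 genes were at 0 in both.

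Among the receptors, FGFR3 was the only called member. FGFR3 had 123 counts in parental and 29 in resistant cells, or 7.31 CPM (6.07 to 8.72) and 1.71 CPM (1.14 to 2.45). It was 4.28-fold lower (2.83 to 6.65), a log2 ratio of -2.08. On the authors' deposited log2 values the difference was -0.96, which misses 1; these values have 1 added before the logarithm and so understate the change of low genes.

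FGFR1, a main receptor of FGF2, had 379 and 461 counts, or 22.5 CPM in parental and 27.2 CPM in resistant cells. Its ratio was 1.21-fold (1.05 to 1.39), short of 2-fold. FGFR4, the receptor of FGF19, was at 7.19 and 9.48 CPM, 1.32-fold higher in the resistant library (1.04 to 1.68). For both genes the counting interval lay just above no change, and no replicate shows how far either gene varies between cultures. FGFR2 had 1 and 5 counts, a ratio of 4.96 with an interval of 0.555 to 235, which spans no change. FGFRL1, a receptor-like protein that binds FGF but has no kinase domain, was at 103.8 and 89.0 CPM, 1.17-fold lower (1.09 to 1.25).

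Levels of different genes were compared per length. The deposited log2 values behave as log2(CPM per kilobase + 1), with CPM taken on library totals. For 97.1% of 8345 genes with at least 200 counts in both libraries, the gene length they imply was the same in both within 5% of the median ratio. The implied lengths were a median 0.927 times the longest GENCODE transcript. On this length-scaled level FGFR1 was at 3.95 in parental and 4.72 in resistant cells, FGFR4 at 2.40 and 3.32, FGFR3 at 1.80 and 0.439, and FGFR2 at 0.0161 and 0.0890. The sum of the 4 kinase receptors was 8.17 and 8.57. FGFR3 made up 22.0% of that sum in parental and 5.12% in resistant cells, FGFR4 29.4% and 38.7%, and FGFR1 48.4% and 55.1%. The order FGFR1, FGFR4, FGFR3, FGFR2 held in both libraries, with no replicate spread to set beside the gaps.

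**Figure D2:**
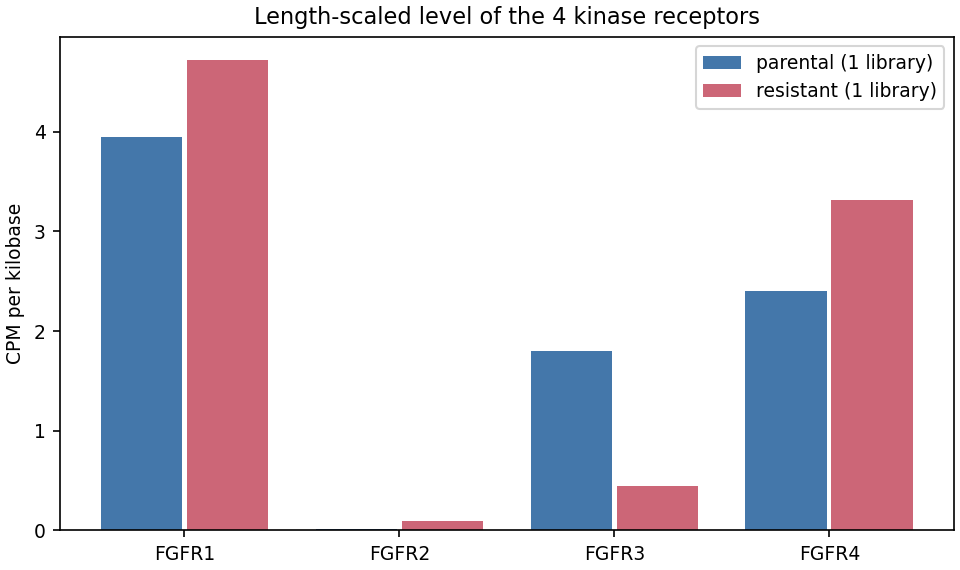
Length-scaled level, in CPM per kilobase, of the 4 kinase receptors in the parental (blue) and resistant (red) library, 1 library each with no error bar. FGFR3 fell from 1.80 to 0.439, FGFR1 and FGFR4 stand slightly higher in the resistant library, and FGFR2 is barely visible.

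The kinase receptors are paralogs, so the longest identical run between each pair of their coding transcripts was found in GENCODE 29. It was 39 bases for FGFR1 and FGFR2 and from 23 to 31 bases for the other pairs. The 31 bases shared by FGFR3 and FGFR4 are shown as the longest stretch whose short reads could fit either the called receptor or another; they encode part of the catalytic loop of the kinase domain. The run is wholly coding in 5 of 6 protein-coding FGFR3 transcripts and 5 of 5 FGFR4 transcripts that contain it.
FGFR3 and FGFR4: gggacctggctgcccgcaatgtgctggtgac
No 50-base word was shared between any of the receptor genes. For FGFR3, FGFRL1, FGFBP1, FGF19, SDC1 and SDC4, 0 of the 50-base words were found in any other gene on either strand. FGFR1 shared 40 of 14783 words with other genes in sense and 240 in antisense. FGFR2 shared 33 and 34 of 8059, and FGFR4 28 and 17 of 5325. The read length is not given. The deposited counts are per gene, so the alternative IIIb and IIIc forms of the receptors, which set which FGF they bind, were not resolved.

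Those forms are made by regulated splicing, and the 6 splicing regulators listed were mostly close between the libraries. ESRP2, an epithelial regulator that favours the IIIb form, was at 66.6 and 28.6 CPM, 2.33-fold lower (2.09 to 2.60), and was the 1 regulator called. Its paralog ESRP1 was at 256 and 165 CPM, a log2 ratio of -0.64. PTBP1, the most abundant, was at -0.05.

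The upstream bases of FGFR3 and FGFBP1 are set side by side because both genes were called lower. Both are from the RefSeq table, build GRCh38.p14: FGFR3 from chr4:1793043-1793292 on the plus strand and FGFBP1 from chr4:15938741-15938990 on the minus strand, each 250 bases, with GC boxes in capitals.
FGFR3: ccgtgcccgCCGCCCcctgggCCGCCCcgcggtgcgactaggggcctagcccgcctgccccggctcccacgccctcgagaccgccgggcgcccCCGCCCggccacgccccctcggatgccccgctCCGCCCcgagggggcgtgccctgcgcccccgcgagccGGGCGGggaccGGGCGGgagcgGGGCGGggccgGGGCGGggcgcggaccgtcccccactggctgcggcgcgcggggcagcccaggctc
FGFBP1: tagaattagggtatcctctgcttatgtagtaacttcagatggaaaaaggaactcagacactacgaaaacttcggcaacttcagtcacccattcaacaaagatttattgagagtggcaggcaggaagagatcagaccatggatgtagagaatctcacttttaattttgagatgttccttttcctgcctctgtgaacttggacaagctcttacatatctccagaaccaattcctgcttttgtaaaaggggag
The FGFR3 window holds 8 GC boxes and 40 CpG dinucleotides, and the FGFBP1 window 0 GC boxes and 2 CpG, against a median of 11 CpG over all windows. The windows of the genes called lower thus differ widely in base composition. Neither contains the AP-1 or the TEAD letters given above.

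FGFBP1, a secreted carrier that releases FGF2 from the matrix, had 114 counts in parental and 45 in resistant cells, or 6.77 CPM (5.59 to 8.14) and 2.65 CPM (1.93 to 3.55). It was 2.55-fold lower (1.79 to 3.69). The interval reaches below 2-fold, so the call was lost when the whole interval had to lie beyond it. FGFBP3, a related carrier outside the set, was at 20.7 and 8.19 CPM, 2.53-fold lower (2.07 to 3.10). FGFBP2 had 0 counts in both, so each of the 2 carriers that were tested was called lower, beside 8.29% of all tested genes. FGFBP1 belongs to the set picked with earlier results known, so this count is a description. With the 4-fold rule neither carrier was called.

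The syndecans SDC1 and SDC4 carry heparan sulfate chains that hold FGF2 on its receptor, and they were the most abundant genes of the set per length. SDC4 had 6159 and 3997 counts, or 366 and 235 CPM, and was 1.55-fold lower in the resistant library (1.49 to 1.62). SDC1 had 4433 and 3199 counts, or 263 and 188 CPM, and was 1.40-fold lower (1.33 to 1.46). Both were short of 2-fold, with counting intervals wholly below no change. On the length-scaled level SDC4 was at 146 and 94.3, SDC1 at 84.2 and 60.4, and FGF2 at 0 and 6.53.

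The wider list of 14 heparan sulfate core proteins, all tested, had 5 members called higher and 2 lower, beside 12.1% and 8.29% of all tested genes. The median log2 ratio was 0.03, beside 0.00 over all tested genes. The highest ratios were those of glypicans, which are anchored to the membrane by a lipid. GPC3 had 0 and 477 counts and was at least 158-fold higher against the limit of 3 counts, with a lower interval end of 128-fold. GPC5 had 0 and 34 counts and was at least 11.2-fold higher, with a lower end of 8.65-fold. GPC6 had 1 and 311 counts, a log2 ratio of 7.69 (5.78 to 13.58). In parental cells these 3 did not reach 1 CPM, so only the resistant library let them be tested and the filter fixed their direction, as for GPC2, with 12 and 31 counts. COL18A1, a basement membrane collagen that carries heparan sulfate, was at 23.8 and 217 CPM, a log2 ratio of 3.18 (3.04 to 3.34). Named after their values were seen, SDC3 was 2.78-fold lower (2.37 to 3.27) and GPC4 2.07-fold lower (1.84 to 2.32). AGRN, the most abundant, was at -0.20, and GPC1, a co-receptor of FGF2, at 131 and 99.4 CPM.

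**Figure D3:**
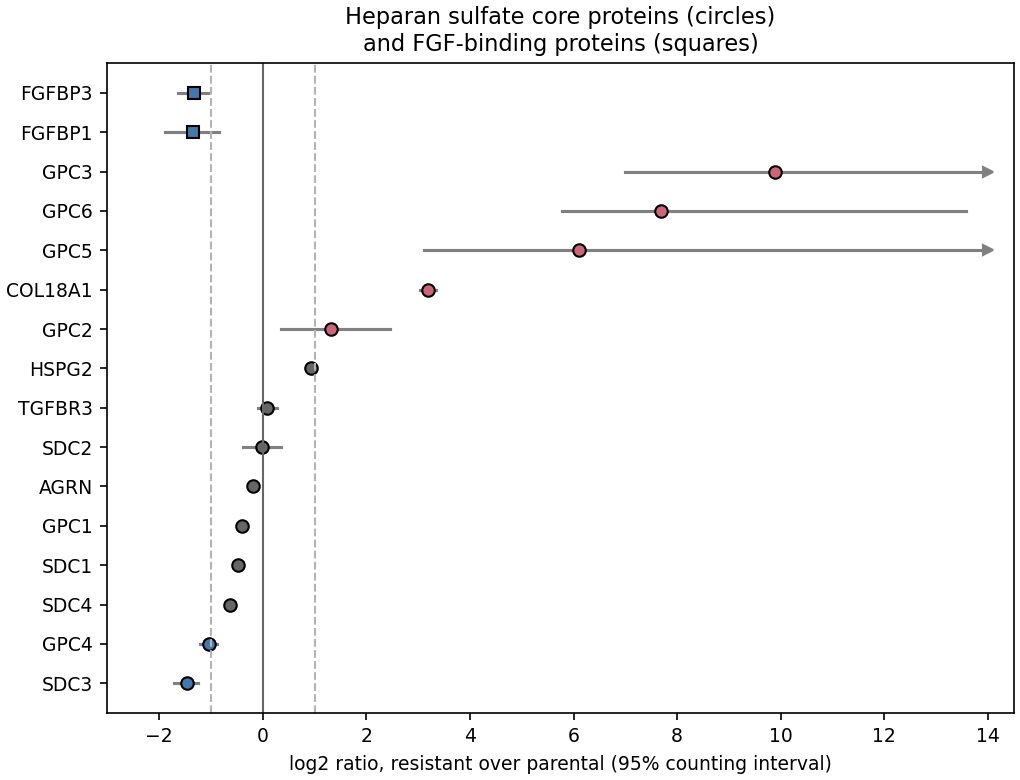
Log2 ratio, resistant over parental, of 14 heparan sulfate core proteins (circles) and the 2 tested FGF-binding proteins (squares), with 95% counting intervals (arrows: no upper end); red marks higher, blue lower and grey neither, and dashed lines mark 2-fold. GPC3, GPC6 and GPC5 lie far to the right, and SDC1 and SDC4 lie between the dashed lines.

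Heparan sulfate synthesis and trimming genes had 19 of 29 members tested, with 2 higher and 2 lower and a median log2 ratio of -0.05. With 20.4% of all tested genes called, this is near the background. The 6-O-sulfotransferases add a sulfate that FGF signalling needs. HS6ST3 had 174 and 18 counts and was 9.75-fold lower (5.99 to 16.8), HS6ST1 was 2.06-fold lower (1.89 to 2.25), and HS6ST2 was at -0.48. The 3-O-sulfotransferase gene HS3ST3A1 had 1 and 58 counts and was tested only through the resistant library, and HPSE, the heparanase that cuts the chains, was 2.76-fold higher with 55 and 153 counts. B3GALT6, an enzyme of the linker between chain and core protein and the most abundant member, was at -0.05. The genes of the sulfatases that strip 6-O-sulfate, SULF1 and SULF2, had at most 1 count in either library.

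Of 13 adaptors and effectors, 0 were called, against 20.4% of all tested genes, and the median log2 ratio was 0.04. FRS2, the docking protein of FGF receptors, was at 58.8 and 99.0 CPM, a log2 ratio of 0.75, and the phosphatase PTPN11 at -0.69. SHC1, the most abundant, was at 0.25. The gene of TEC, a kinase that takes part in FGF2 export, was at 0.27.

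FGF feedback and target genes had 17 of 20 members tested, with 2 called in each direction and a median log2 ratio of -0.12. This too is near the 20.4% called over all tested genes. The ERK phosphatase DUSP6 (-3.73) and the inhibitor SPRY1 (-1.76) were lower. FLRT2 (2.70) and FLRT3 (1.42), membrane proteins that bind FGF receptors, were higher. DUSP4, the most abundant, was at -0.09. Of the ERK-responsive ETV factors, ETV5 was at 0.07, ETV4 at -0.89 and ETV1 at -0.94. Relatives of SPRY1 and DUSP6 were mixed in direction, with SPRY4 at 0.95, DUSP5 at 0.76 and SPRY2 at -0.67, all short of a call. Of the 17 tested, 6 had ratios above 0 and 11 below.

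Among 6 adhesion and membrane proteins known to bind FGF receptors, 4 were called higher and 0 lower, beside 12.1% and 8.29% of all tested genes. Of these 4, NCAM1 and ANOS1 passed the limit of 1 CPM only through the resistant library, which fixed their direction and enters the list median. The neural adhesion gene L1CAM went from 31 to 4156 counts and was 133-fold higher, with a log2 ratio of 7.03 (6.55 to 7.61). N-cadherin, CDH2, was at 2.55 and 11.6 CPM, a log2 ratio of 2.17. NCAM1, at 0 and 25 counts, and ANOS1, at 4 and 17, were scarce. E-cadherin, CDH1, the most abundant of the 6 by the mean of both libraries, was at -0.69, and the list median was 2.06.

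The 4 FGF homologous factors, which stay in the cell and bind sodium channels, were nearly silent. FGF12 had 0 and 17 counts and was called higher, FGF11 had 19 and 7 and was called lower, and the other 2 had at most 1 count. Each of the called genes passed 1 CPM only in the library where it was high, so the filter fixed its direction.

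By RefSeq gene order, 4 of the 10 genes lie on chromosome 4: FGF2, FGFR3, FGFRL1 and FGFBP1. For each gene of the set, the 5 nearest tested genes on either side were compared with it. Of 99 such neighbours, 12 were called higher and 6 lower, near the 12.1% and 8.29% of all tested genes. Among those called, FAT4, IDUA, SPON2 and PI3 reached 1 CPM only in the resistant library. BTBD16 and KLHL29 reached it only in the parental library. For these genes the filter fixed the direction. All 10 neighbours of FGFR3 stayed within 2-fold, from -0.77 to 0.44. Those of FGFBP1 had a median of 0.46, with CC2D2A called higher at 1.92. Neighbours of SDC4, itself at -0.64, had a median of -0.58, with 2 called in each direction. Neighbours of SDC1, itself at -0.48, had a median of -0.32, with 1 called in each direction. The medians beside FGFR1, FGFR4 and FGFRL1 were 0.02, 0.29 and 0.42. Beside FGF2, 7 of 10 neighbours were called neither way. The other 3 were NUDT6, FAT4, a cadherin gene with 1 and 271 counts, and SPRY1, which was lower. The NUDT6 call lay at the limit, with a log2 ratio of 1.00, and its deposited log2 values differed by 0.896, short of 1.

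**Figure D4:**
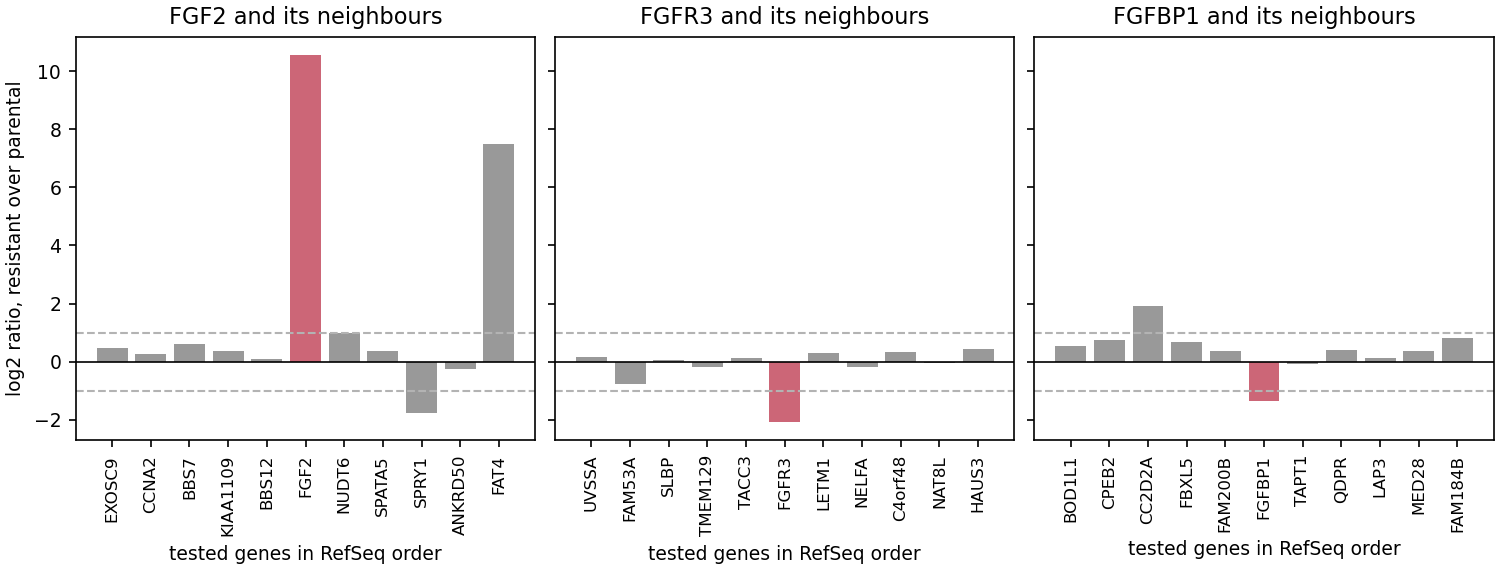
Log2 ratio, resistant over parental, of FGF2, FGFR3 and FGFBP1 (red bars) and the 5 nearest tested genes on each side in RefSeq order (grey bars), with 2-fold as dashed lines and no error drawn. FGFR3 and FGFBP1 were called lower and none of their neighbours was, and FAT4 is the neighbour of FGF2 with the highest ratio. The heights of FGF2 and FAT4 depend on the 0.5 added to each count, and both were tested only through the resistant library, which fixed their direction.

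The genes nearest to FGF2 in level across the 2 libraries, by Euclidean distance in log2(CPM + 0.5), were TMEM178B, COL25A1, BCAT1, PNMAL1 and HSD17B2. They had 0 or 1 counts in the parental library and from 659 to 810 in the resistant one. With 2 points per gene, this likeness says only that they shared a level in each library.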

How the data were processed

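The authors deposited raw counts per gene symbol for both libraries and, per the file headers, a normalized log2 value for each. FastQC and STAR are the tools named, per the submitters' processing notes. The notes name GRCh38 and hg19 without a role, so the files' coordinates are not used. The counting program, annotation and strand setting are not given in the sources used here. The resistant column is headed PR_S2 and was matched to the library named HPR_S2.

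From the counts, effective library sizes came from edgeR 4.0.16 (TMM) in R 4.3.3, and intervals were conditional binomial (Clopper-Pearson) or Poisson intervals from scipy 1.17.1, at 95%. Reads are not independent molecules, so intervals and limits cover counting error only. The call rule was tested on simulated Poisson counts, which hold no spread between cultures and so do not stand in for a replicate. With 1 library per group no p-value was computed. The members and gene lists were chosen with earlier results of these data known. All 163 list symbols were found.

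Named genes are the 10 members, the 5 genes nearest to FGF2, some but not all of the called neighbours, NUDT6 and MET. In each list they include the called genes (at most the 4 with the largest ratios) and the most abundant one. A few others are named for their role. Protein identity of the receptors was planned; transcript runs were used in its place. Alternatives changed scaling (library totals, DESeq2 1.42.0 size factors, upper quartile), the count filter, the call rule, the added count, or used the deposited log2 values. 1 gene of the lists is not reported here.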

Additional observations from a re-analysis of the deposited data

How the results depend on the processing

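No paired analysis was possible because each group has 1 library and the columns carry no replicate number; for the same reason no library could be left out. FGF2 was called higher in all 9 alternatives. FGFR3 and FGFBP1 kept their sign in all 9, and only 1 member was called lower with the whole interval beyond 2-fold (FGFR3), the 4-fold rule (FGFR3) or the deposited log2 values (FGFBP1, with FGFR3 at -0.96); FGFBP1 stood at -1.34 under the first 2 of these. Over all genes, 2495 were called, against 1133 with the 4-fold rule and 1517 with the deposited log2 values; by direction these were 774 and 926 higher, and 359 and 591 lower, with 655 lower for the whole interval. Among the lists, with both directions added, the 4-fold rule left 4 heparan sulfate core proteins, 2 synthesis genes, 2 feedback genes, 1 homologous factor, 0 binding proteins, 0 splicing regulators and 6 neighbours. The deposited log2 values left 4 core proteins, 1 synthesis gene, 0 receptors, 0 homologous factors, 2 membrane proteins and 10 neighbours. The whole-interval rule left 1 binding protein, 1 homologous factor and 11 of 18 neighbours. At 5 CPM, 2 membrane proteins and 0 homologous factors were called, and with library totals 1 homologous factor. With library totals or an added count of 1, 17 neighbours were called. Without a filter, 5 secreted ligands were called in place of 3. Of the 33 genes of the lists and markers that were called, 0 changed sign in any alternative. Filter and call-rule settings leave the ratio itself unchanged, and the scalings shift all genes alike by little. Kept signs, those of FGFR3 and FGFBP1 included, were thus largely fixed in advance and do not show stability. With 0 parental counts, FGF2 could not be called lower under any setting. Depth limits FGF19 and FGFR2, at 5 counts or fewer, and no setting replaces a replicate.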

Other observations

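Of the 6 glypican genes, 4 form 2 pairs of neighbours, and their values differed between the pairs. GPC5 and GPC6 are next to each other on chromosome 13 in RefSeq gene order, with 0 genes of the table between them, and both were called higher, from 0 to 34 and from 1 to 311 counts. GPC3 and GPC4 adjoin on the X chromosome, also with 0 genes between, and differed in opposite directions, GPC3 from 0 to 477 counts and GPC4 from 894 to 436. These pairs were noticed after the values were seen.

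The perlecan gene HSPG2, a basement membrane proteoglycan that binds FGF2, had 239 CPM in parental and 458 CPM in resistant cells, a log2 ratio of 0.94 (0.88 to 0.99), just short of 2-fold. On the length-scaled level it was at 16.2 and 31.1, and COL18A1 was at 4.37 and 39.7. These genes were named after their values were seen.

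SPRY1, an inhibitor of FGF receptor signalling, is itself a neighbour of FGF2 on chromosome 4, with 2 genes of the table between them. It had 673 and 200 counts, a difference opposite in direction to that of FGF2.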
